A study of Mus musculus with 5 samples.

Results

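The genes described here move calcium out of the cytosol of the heart muscle cell, or encode the calmodulin-dependent kinase CaMKII that tunes this transport. They were chosen by name: Atp2a2, Pln, Sln, Slc8a1, Atp2b1, Atp2b4, Camk2d, Camk2a, Camk2g and S100a1, 10 of the 41128 genes listed. All 10 were found by symbol, and 9 of them had a mean of at least 10 normalized reads and entered the test with 14989 genes in all. Sln, at 0 reads in every library, was the exception.

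The libraries hold RNA from sorted cardiomyocyte nuclei of FVB mice, 8 weeks old, 7 days after the left anterior descending (LAD) artery was tied off for good, so that the remote tissue comes from infarcted hearts too. Nuclei were sorted with an antibody to PCM-1, a centrosomal protein found around cardiomyocyte nuclei, and cDNA was made from 500 pg of input. The border zone group, muscle next to the infarct, holds libraries BZ-32, BZ-34 and BZ-40, and the remote group, muscle away from it, holds RM-40 and RM-43, where the number names the mouse. The study asks which transcripts differ between these regions. No sham-operated heart was analysed here. The p-values measure the spread between these libraries and take BZ-40 and RM-40, from 1 mouse, as independent. In such bulk samples fewer nuclei with a transcript and less of it per nucleus cannot be told apart.

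Each heartbeat ends with the removal of calcium from the cytosol. The SERCA pump, encoded in heart by Atp2a2, returns most of it to the sarcoplasmic reticulum, and the sodium-calcium exchanger encoded by Slc8a1 carries the rest across the cell membrane. Phospholamban (Pln) and sarcolipin (Sln) are small membrane proteins that inhibit SERCA, and phosphorylation of phospholamban by protein kinase A or CaMKII relieves this. CaMKII is a multimer of subunits from the genes Camk2a, Camk2b, Camk2d and Camk2g, of which delta predominates in heart.

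The coding sequence of Pln is shown because it is the gene of the set with the largest difference and its product is a substrate of CaMKII. Capitals mark codons 16 and 17, the serine phosphorylated by protein kinase A and the threonine phosphorylated by CaMKII (GENCODE M21 on GRCm38, chr10:53343864-53344019, plus strand, 52 codons without the stop).
Pln coding sequence: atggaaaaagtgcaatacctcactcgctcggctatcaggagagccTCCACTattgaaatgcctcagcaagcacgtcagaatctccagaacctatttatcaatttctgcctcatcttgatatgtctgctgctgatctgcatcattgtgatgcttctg

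The 250 bases before the RefSeq start of Pln (chr10:53337436-53337685, plus strand) and of Slc8a1 (chr17:81738388-81738637, minus strand), from RefSeq on GRCm38.p6, are shown to set the gene with the largest difference beside an abundant one with no difference detected. Promoter entries matched 6 of the 10 genes. Capitals mark matches on either strand to GATA and to the E-box CANNTG.
Pln promoter: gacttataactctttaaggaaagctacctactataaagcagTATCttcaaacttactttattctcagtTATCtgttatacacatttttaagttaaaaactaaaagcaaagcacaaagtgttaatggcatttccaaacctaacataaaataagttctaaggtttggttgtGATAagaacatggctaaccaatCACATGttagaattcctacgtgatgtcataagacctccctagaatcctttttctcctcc
Slc8a1 promoter: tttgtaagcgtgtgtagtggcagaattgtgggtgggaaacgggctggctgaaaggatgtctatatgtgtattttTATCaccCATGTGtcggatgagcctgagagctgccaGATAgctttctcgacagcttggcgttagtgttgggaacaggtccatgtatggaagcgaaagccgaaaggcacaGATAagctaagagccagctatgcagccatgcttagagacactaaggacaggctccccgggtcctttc

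Each of these windows held 3 matches to GATA, found in 53.6% of 32851 promoter windows of 250 bases, and 1 to the E-box, found in 66.2%. GGAAA, the core bound by NFAT, matched 2 times before Pln and 1 time before Slc8a1, and 55.6% of windows hold it. TATAAA matched 1 time before Pln, 219 bases before the start, and is held by 12.4% of windows. Neither window held a match to the MEF2 motif (2.92% of windows), the CArG box (1.47%), the M-CAT motif CATTCC (12.6%) or the AP-1 motif TGANTCA (6.75%). No match overlapped that of another motif. These matches describe letters and do not show binding.

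Library depth, recovered from the deposited values, ran from 18725791 to 25014205 reads in the border zone and from 11324539 to 13440421 in remote muscle. BZ-32 and BZ-34 nevertheless held the fewest genes above 0, with 17567 and 19725, against 20634 in BZ-40 and 22386 to 23033 in the remote libraries. All 8 cardiomyocyte markers were present. Their summed normalized reads were 1865114 to 6353003 in the border zone and 1003972 to 1490862 in remote muscle, without overlap, while as a share of all normalized reads the regions overlapped (12.7% to 16.0% and 12.1% to 14.7%). Ttn carried most of the cardiomyocyte sums, with 1445796 to 4927482 normalized reads in the border zone and 724802.5 to 1074109 in remote muscle. The regions overlapped for Myl2 and Myh6 and not for the other cardiomyocyte markers. The sums of 9 atrial markers were 1052 to 1846 in the border zone and 1559 to 1735.5 in remote muscle, carried by Pam (880 to 1789 and 1431 to 1652). Their shares were 0.00406% to 0.0126% and 0.0171% to 0.0188%. Of these markers, Myl7, Bmp10 and Sln were at 0 in all libraries. The fibroblast sums were 3449 to 5116 in the border zone and 1974 to 2753 in remote muscle, but as shares the order was the other way, with 0.0118% to 0.0235% and 0.0239% to 0.0271%. The sums of 8 smooth muscle and pericyte markers were 1691 to 2748 and 2755 to 5419.8, and their shares 0.00653% to 0.0123% and 0.02715% to 0.0655%. Abcc9 carried these sums, with 754 to 1552 and 2327 to 4900.1, whereas the median log2 change of the 7 tested was 0.61. Pdgfrb was higher in the border zone (192 to 281 and 100 to 113) and Rgs5 lower (1.585 to 48.5 and 95.1 to 175). The regions overlapped for the other markers of this list. The endothelial sums were 179 to 612 and 414 to 445, and the macrophage sums, with Cd14 at 0, were 96.7 to 217 and 214 to 286. As shares of all normalized reads both were lower in the border zone, without overlap. The endothelial shares were 0.000452% to 0.00321% and 0.00408% to 0.00538%, and the macrophage shares 0.000244% to 0.00148% and 0.00211% to 0.00345%. The neuron and Schwann cell sums were 125 to 314 and 59.2 to 66.4, and the skeletal muscle sums 4685 to 13281 and 1272 to 2475. The latter were carried by Acta1 (2532 to 8950 and 306 to 1077) and Ckm (1355 to 2818 and 476 to 559). Myh1 and Myh4 overlapped between regions, and Mylpf, Tnni2 and Tnnt3 had at most 11.1 normalized reads. As shares the skeletal muscle sums overlapped (0.0237% to 0.0335% and 0.0154% to 0.0244%). The part of these differences in the results below was not tested.

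By limma on log2(normalized reads + 1), 0 of the 9 tested genes passed an adjusted p of 0.05 in either direction, against 0.0% of all tested genes. At an unadjusted p under 0.05 limma gave 0 of the 9 higher in the border zone (10.2% of all genes) and 1 lower, Pln (7.87%), with 18.1% of all genes in either direction. edgeR called 0 of the 9 (0.0% of all genes), and at an unadjusted p under 0.05 it gave 0 higher (9.45%) and Pln lower (6.52%), with 16.0% in either direction. DESeq2 called 0 of the 9, where it called 3.46% of all genes higher, 1.98% lower and 5.44% in either direction. At an unadjusted p under 0.05 DESeq2 also gave 0 higher (13.4%) and Pln lower (8.88%), with 22.2% in either direction. Of the 9 genes, 0 passed in the authors' deposited table, against 3.46% of its genes higher, 1.98% lower and 5.44% in all.

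Each border zone value exceeded each remote value for 2 of the 9, Camk2a and Camk2g (18.9% of all tested genes), and was lower for 1, Pln (20.3%), so 3 did not overlap (39.2%). The log2 change, border zone over remote, was above 0 for 4 of the 9 (45.0% of all tested genes) and below 0 for 5 (55.0%). Its median was -0.11 for the 9 genes and -0.21 for all tested genes. These counts were near the background, and the description below goes gene by gene.

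**Figure D1:**
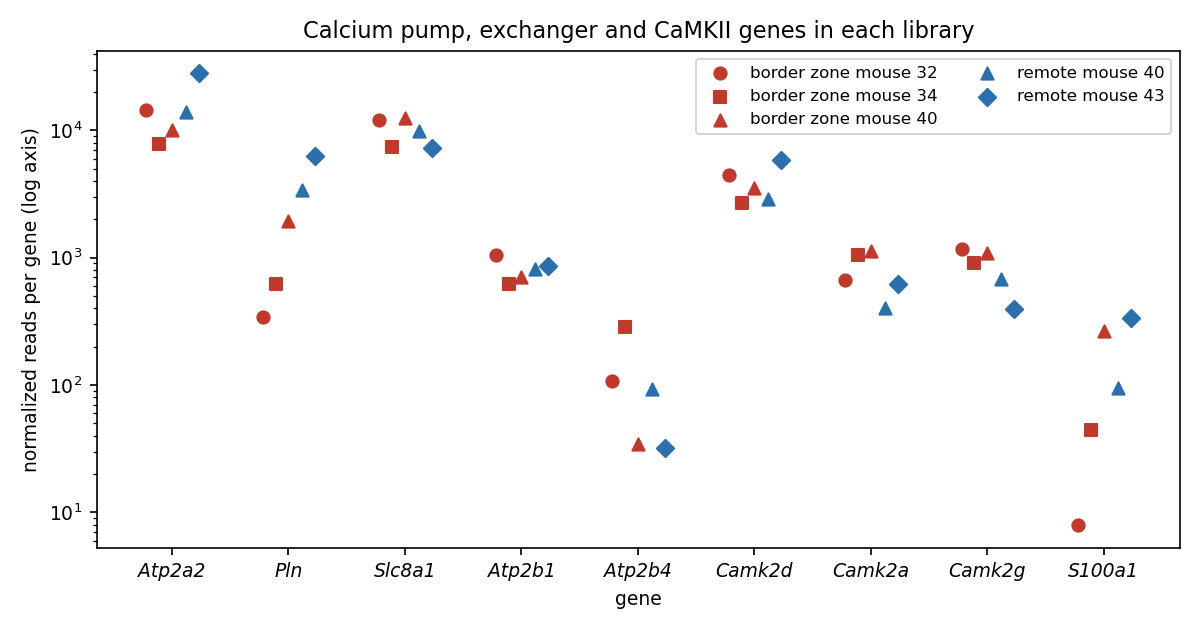
Normalized reads per gene (vertical, log axis) for the 9 genes with reads, 1 point per library, red for border zone and blue for remote, with triangles for mouse 40. Pln runs from 341 in BZ-32 to 6271 in RM-43 with no overlap between regions, whereas Slc8a1 and Atp2b1 points of both regions mix.

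Atp2a2, the SERCA pump gene (ENSMUSG00000029467, mm10 chromosome 5, 122453513 to 122502225, minus strand), had 14507, 7819 and 10136 normalized reads in BZ-32, BZ-34 and BZ-40. It had 13851 and 27987 in RM-40 and RM-43. BZ-32 lay above RM-40, so the regions overlapped, and RM-43 was highest. The means were 10820.4 ± 3396 (SD, n = 3) and 20919 ± 9996 (SD, n = 2). The change was -0.91 ± 0.52 (SE, log2) with a limma adjusted p of 0.366. Without RM-43 the change was -0.40, and within mouse 40 it was -0.45. Quantile normalization moved it to -2.40, still short of the threshold (limma adjusted p = 0.0872).

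Pln (ENSMUSG00000038583, chromosome 10, 53337667 to 53345987, plus strand) had 341, 623 and 1938 normalized reads in BZ-32, BZ-34 and BZ-40, from 215, 506 and 2477 recovered reads. It had 3389.5 and 6271 in RM-40 and RM-43, from 4490 and 8579 reads. Every border zone library was below every remote one, and within the border zone BZ-32 was lowest and BZ-40 highest. Border zone and remote means were 967 ± 852 (SD, n = 3) and 4830 ± 2037 (SD, n = 2), and remote muscle was 4.99 times higher by these means.

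The log2 change of Pln was -2.63 ± 0.67 (SE), with a limma p of 0.0020 and an adjusted p of 0.140 over all genes. The authors' deposited table gave -2.32 and an adjusted p of 0.0676. Without BZ-40 Pln was lower past the threshold, at -3.32 by limma (adjusted p = 0.0441) and at -3.34 by DESeq2 (adjusted p = 1.09e-05), where limma called 235 genes in all and DESeq2 2801. Of the 9 genes limma then called 1, against 235 of the 14989 tested genes. DESeq2 called 2 of the 9, Pln and S100a1, against 2801 genes in all, where its fit to all libraries tested 16592. Over all alternatives the adjusted p ran from 1.09e-05 to 0.973, and the change was negative in 22 of 22, from -4.06 to -0.81. As the regions did not overlap for Pln, leaving libraries out at the deposited scaling could not turn its sign. The smallest difference was that within mouse 40, where region is compared inside 1 animal. With BZ-40, RM-40 and RM-43 alone it was -1.25.

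Of all 14989 tested genes, 1237, or 8.25%, had a log2 change as low as that of Pln or lower, Pln included. In terms of rank, the level per kilobase of Pln stood at percentile 78.5, 88.6 and 97.5 of tested genes in BZ-32, BZ-34 and BZ-40, and at percentile 99.2 and 99.6 in RM-40 and RM-43. The 1334 genes that span under 10 kb and have a mean of at least 100, the class to which Pln (8321 bases) belongs, had a median log2 change of 0.44, and 37.2% of them were lower in the border zone.

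Pln lies inside Cep85l, which is transcribed from the opposite strand, and whether reads were counted by strand is not given in the sources used here. Cep85l had 103.0 to 143 normalized reads in the border zone and 152 and 252 in remote muscle. Its part in the Pln values was not tested.

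Sln had 0 reads in each of the 5 libraries. A count of 0 allows up to 3 reads, or 2.19 to 4.75 normalized reads in the 5 libraries, which covers counting error only. No change of sarcolipin RNA between regions was detectable at this depth.

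S100a1 encodes a calcium sensor that binds SERCA and the ryanodine receptor and enhances their activity (ENSMUSG00000044080, chromosome 3, 90511034 to 90514392, minus strand). It had 7.92, 44.3 and 266 normalized reads in BZ-32, BZ-34 and BZ-40, and 94.4 and 335 in RM-40 and RM-43. The lowest libraries were again BZ-32 and BZ-34, while BZ-40 lay between the remote libraries, so the regions overlapped. The border zone mean was 106 ± 140 (SD, n = 3) and the remote mean 215 ± 170 (SD, n = 2). The log2 change was -1.91 ± 1.25 (SE, limma adjusted p = 0.429), resting on 5 recovered reads in BZ-32. On the same libraries it was -1.01 by DESeq2 (adjusted p = 0.681) and -1.05 by edgeR (adjusted p = 0.700). Without BZ-32 the limma change was -0.70, and within mouse 40 it was 1.48 in the other direction. By DESeq2 it passed without BZ-40 (-3.05, adjusted p = 0.0169), turned to 0.20 without RM-43, and over the alternatives the adjusted p ran from 0.0169 to 0.999.

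Setting the inhibitor against the pump within each library removes any scaling between libraries. Pln reads per Atp2a2 read, with no correction for length, were 0.0235, 0.0796 and 0.191 in BZ-32, BZ-34 and BZ-40. They were 0.245 and 0.224 in RM-40 and RM-43. All border zone ratios lay below both remote ones, and the remote libraries were close to each other. The border zone mean of the log2 ratio was -3.82 ± 1.52 (SD, n = 3) and the remote mean -2.09 ± 0.09 (SD, n = 2), a difference of -1.72 or 3.30-fold. The exact two-sided permutation p was 0.2, the smallest that 3 libraries against 2 can give. The difference was -0.92 without BZ-32, and within mouse 40 it was -0.36.

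The exchanger gene Slc8a1 (ENSMUSG00000054640, chromosome 17, 81373105 to 81738377, minus strand) had 11977, 7405 and 12410.3 normalized reads in BZ-32, BZ-34 and BZ-40, and 9817.5 and 7265 in RM-40 and RM-43. Libraries of the regions interleaved. The means were 10597.5 ± 2773 (SD, n = 3) and 8541 ± 1805 (SD, n = 2), and the log2 change was 0.29 ± 0.47 (SE, limma adjusted p = 0.765). Its direction depended on the scaling, with -1.04 under quantile normalization and -1.14 under total-count scaling, which moved the median of all tested genes by -1.38.

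Slc8a1 reads per Atp2a2 read were 0.826, 0.947 and 1.22 in BZ-32, BZ-34 and BZ-40, and 0.709 and 0.260 in RM-40 and RM-43. The border zone ratios lay above both remote ones. On the log2 scale the mean ratio was -0.02 ± 0.29 (SD, n = 3) against -1.22 ± 1.03 (SD, n = 2), a difference of 1.20 or 2.30-fold with an exact two-sided permutation p of 0.2, again the smallest possible. Without RM-43, whose Atp2a2 level was the highest, the difference was 0.48, and without RM-40 it was 1.93. Within mouse 40 it was 0.79.

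The plasma membrane calcium pumps, which extrude calcium at low capacity, did not pass the test. Atp2b1 (chromosome 10, 98914406 to 99026143, plus strand) had 1057, 624 and 699 normalized reads in BZ-32, BZ-34 and BZ-40, and 815 and 854 in RM-40 and RM-43. Both remote values lay inside the border zone range, and the log2 change was -0.11 ± 0.49 (SE, limma adjusted p = 0.918). It was 0.04 without BZ-34. Atp2b4 (chromosome 1, 133699457 to 133801041, minus strand) was low and variable, with 108, 288 and 34.4 normalized reads in the border zone and 92.9 and 32.2 in remote muscle. Its log2 change of 0.89 ± 0.99 (SE, limma adjusted p = 0.650) turned to -1.41 within mouse 40, to -0.66 with BZ-40, RM-40 and RM-43 alone and to -0.52 under total-count scaling. Its highest value was that of BZ-34.

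**Figure D2:**
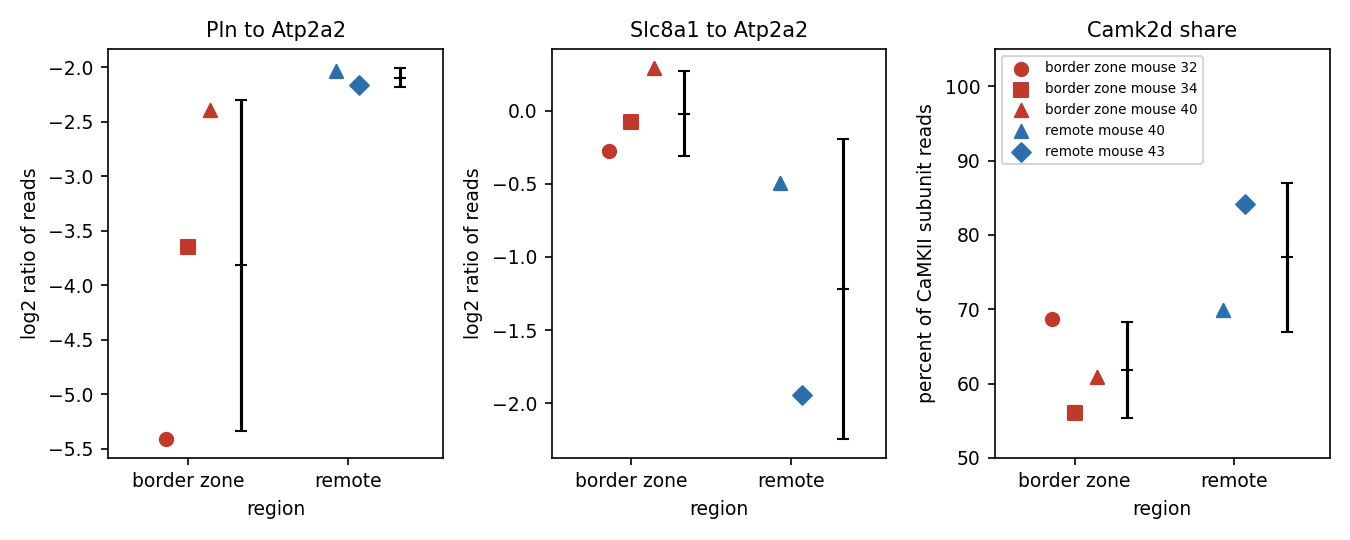
Within-library ratios by region: log2 of Pln reads per Atp2a2 read, log2 of Slc8a1 reads per Atp2a2 read, and Camk2d as a percentage of the reads of the 4 CaMKII subunit genes; points are libraries, and bars beside them are mean ± SD (3 border zone, 2 remote). In each panel the regions do not overlap, and BZ-40 and RM-40 (triangles) lie closer together than the group means do.

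Of the kinase genes, Camk2d, the main cardiac subunit (ENSMUSG00000053819, chromosome 3, 126596302 to 126846326, plus strand), had 4485, 2666 and 3526 normalized reads in BZ-32, BZ-34 and BZ-40. RM-40 and RM-43 had 2863 and 5798, so that the remote libraries spanned most of the border zone range. Its log2 change was -0.23 ± 0.49 (SE, limma adjusted p = 0.823), 0.28 without RM-43 and 0.30 within mouse 40. Gm15551, an antisense gene within Camk2d, had 58.5 to 247 normalized reads over the 5 libraries.

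Camk2g, the gamma subunit (ENSMUSG00000021820, chromosome 14, 20734875 to 20794088, minus strand), had 1159, 909 and 1095 normalized reads in BZ-32, BZ-34 and BZ-40. It had 680 and 395 in RM-40 and RM-43, below all border zone libraries. The means were 1054 ± 129 (SD, n = 3) and 538 ± 201 (SD, n = 2), and the log2 change was 1.02 ± 0.49 (SE, limma adjusted p = 0.297). Camk2a, the alpha subunit, which is best known from neurons (ENSMUSG00000024617, chromosome 18, 60925618 to 60988152, plus strand), had 670 in BZ-32, 1047 in BZ-34 and 1129 in BZ-40. In RM-40 and RM-43 it had 402 and 615. All border zone libraries were above both remote ones, with BZ-32 near RM-43, and the log2 change was 0.89 ± 0.50 (SE, limma adjusted p = 0.363). Within mouse 40 the changes were 0.69 for Camk2g and 1.49 for Camk2a. Total-count scaling turned them to -0.41 and -0.53, both above the median of all tested genes under that scaling, -1.59. The summed neuron and Schwann cell markers were also higher in the border zone (125 to 314 normalized reads against 59.2 to 66.4), while as a share of all normalized reads they overlapped (0.000316% to 0.00214% against 0.000655% to 0.000715%), and their part in the Camk2a values was not tested.

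As a share of the reads of the 4 subunit genes, Camk2d made up 68.7%, 56.0% and 60.9% in BZ-32, BZ-34 and BZ-40. In RM-40 and RM-43 it made up 69.9% and 84.1%. BZ-32 came nearest to RM-40, and the regions did not overlap. The means were 61.8% ± 6.4 (SD, n = 3) and 77.0% ± 10.1 (SD, n = 2), a difference of -15.2 percentage points with an exact two-sided permutation p of 0.2, the smallest possible. Without RM-43 the difference was -8.06 points, and within mouse 40 it was -9.03 points. Camk2a took 10.3%, 21.98% and 19.5% in BZ-32, BZ-34 and BZ-40, and 9.82% and 8.93% in RM-40 and RM-43. Camk2g took 17.7% to 19.1% in the border zone, and 16.6% and 5.74% in RM-40 and RM-43, so that its remote share depended on RM-43. Camk2b stayed between 0.756% and 3.69%. Per length of the longest transcript that the authors list, the Camk2d share was 61.9%, 49.6% and 54.5% in the border zone libraries. It was 63.2% and 80.7% in the remote ones, in the same order. These shares depend on that length, which for Camk2d is 5524 bases against 22493 of exons in GENCODE M21.

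**Figure D3:**
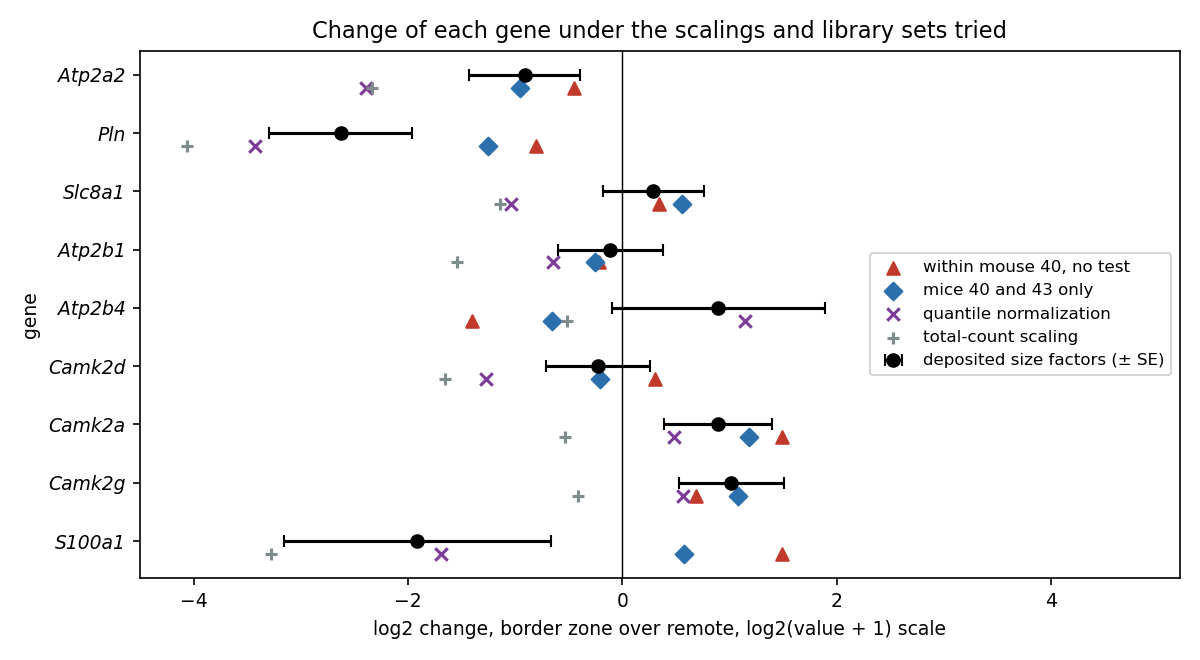
Log2 change, border zone over remote, of the 9 tested genes (horizontal axis) with the deposited size factors (black, ± SE, limma) and, below each, the value within mouse 40, from mice 40 and 43 alone, after quantile normalization and after total-count scaling, which moves the median of all genes by -1.38. Atp2a2 and Pln stay below 0 in each set, while S100a1, Atp2b4 and Camk2d change sign in mouse 40.

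Levels between genes can be compared only per length, here normalized reads per kilobase of the longest transcript that the authors list. In remote muscle the order was Atp2a2 (3687 ± 1762, SD, n = 2), Slc8a1 (2932 ± 620), Pln (1948 ± 822), Camk2d (784 ± 376), S100a1 (318 ± 252), Camk2g (145 ± 54.4), Atp2b1 (117 ± 3.88), Camk2a (102 ± 30.3) and Atp2b4 (5.33 ± 3.66). Each gene overlapped its neighbour in this order within 1 SD, except Atp2b4. In the border zone Slc8a1 led (3638 ± 952, SD, n = 3), followed by Atp2a2 (1907 ± 599), Camk2d (644 ± 165), Pln (390 ± 344), Camk2g (285 ± 35.0), Camk2a (191 ± 49.2), S100a1 (157 ± 206), Atp2b1 (111 ± 32.5) and Atp2b4 (12.2 ± 11.1). There Slc8a1 stood apart from Atp2a2, Atp2a2 from Camk2d, Camk2g from Camk2a and Atp2b1 from Atp2b4 by more than 1 SD of each. The order rests on the lengths used, most of all for Slc8a1 and Camk2d. For Slc8a1 the authors list 2913 bases, whereas its exons in GENCODE M21 cover 18807 bases. Over these its level was 564 per kilobase in the border zone and 454 in remote muscle, below that of Atp2a2 in both (1779 and 3440.0). For Camk2d they list 5524 bases, whereas its exons cover 22493. Over its exons the level was 158 per kilobase in the border zone, below those of Pln (350.5) and Camk2g (165) over theirs. In remote muscle it was 192.5, below that of S100a1 (310).

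The genes with the most similar pattern were taken as those with the smallest root mean square difference in centred log2 values over the 5 libraries, among 6412 named genes with a mean of at least 100. For Atp2a2 these were Cnot2, a subunit of the CCR4-NOT deadenylase (0.065), Arhgap12, a GTPase-activating protein (0.069), and Fndc5, the precursor of irisin (0.076). For Slc8a1 they were the phosphofructokinase gene Pfkp (0.084), the histone methyltransferase gene Ash1l (0.085) and Lrrc41 (0.097). For Camk2d they were Sel1l, of endoplasmic reticulum protein degradation (0.031), the kinase gene Jak1 (0.062) and Tpt1 (0.094). The likeness is a description over 5 libraries that share 1 preparation method and differ in depth.

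Other genes of these pathways were listed in groups. Among 13 genes of the SERCA pump and its regulators, 9 were tested, 6 of them outside the 10 genes described above. By limma 0 of these 6 passed, as by edgeR and DESeq2, 0 had an unadjusted limma p under 0.05, and 3 had positive and 3 negative log2 changes. Hrc, a calcium-binding protein of the sarcoplasmic reticulum lumen, gave 0.43 ± 0.49 (SE), and Hspb6, a small heat shock protein that can raise phospholamban phosphorylation, gave -0.53 ± 0.53. Hrc was negative under quantile normalization (-0.21), under total-count scaling (-0.99) and within mouse 40 (-0.33).

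Among 10 genes of calcium extrusion across the cell membrane, 5 others were tested, and by limma 0 passed and 1 had an unadjusted p under 0.05, against 18.1% of all tested genes. This was Fxyd1, phospholemman, which regulates the sodium pump and the exchanger. It had 11506, 6817 and 3049 normalized reads in BZ-32, BZ-34 and BZ-40 and 2446 and 2456 in RM-40 and RM-43. The border zone libraries were all higher, with BZ-40 nearest to the remote ones. The log2 change was 1.34 ± 0.56 (SE, limma adjusted p = 0.242), 0.32 within mouse 40 and -0.089 under total-count scaling. It passed by DESeq2 without BZ-40 (1.89, adjusted p = 0.0112, with 0.0112 to 0.973 across the alternatives). Without BZ-40 DESeq2 called 2801 genes in all. Bsg, a glycoprotein that serves as a subunit of plasma membrane calcium pumps, had a log2 change of -0.22 ± 0.52 (SE).

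Among 11 genes of CaMKII subunits, activators and inhibitors, 8 others were tested. By limma 0 passed and 1 had an unadjusted p under 0.05, against 18.1% of all tested genes. DESeq2 called that same gene higher (3.46% of all genes) and 0 lower (1.98%), which were also the calls of the authors' deposited table. The called gene was Camk2n1, whose product is an endogenous inhibitor of CaMKII. It had 76.1, 117 and 296 normalized reads in BZ-32, BZ-34 and BZ-40. In RM-40 and RM-43 it had 18.1 and 6.58. The border zone libraries were all higher, and BZ-40, not BZ-32 or BZ-34, was the highest. The log2 change was 3.53 ± 0.99 (SE, limma adjusted p = 0.142), and the authors' deposited table gave 3.73 with an adjusted p of 0.0044. Within mouse 40 the change was 3.96. By DESeq2 the call was lost without RM-43 (3.18, adjusted p = 0.401, with 0.0015 to 0.973 across the alternatives) and held without each of the other libraries. Ppm1e, a phosphatase that acts on CaMKII, gave 1.45 ± 0.70 (SE, limma adjusted p = 0.299). Its value was 607 normalized reads in RM-43 against 3265 to 5583 in the other 4 libraries. Without RM-43 the change was 0.02, and by DESeq2 without RM-40 it was 2.92. Calm2, a calmodulin gene, gave 0.09 ± 0.56 (SE).

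Among 7 genes of the mitochondrial calcium uniporter and exchanger, 6 were tested, 0 passed by limma, edgeR or DESeq2, and 1 had an unadjusted p under 0.05 by limma, against 18.1% of all tested genes (5.44% called by DESeq2). Letm1, of the mitochondrial inner membrane, gave a log2 change of 0.13 ± 0.55 (SE). Slc8b1, the mitochondrial sodium-calcium exchanger, is that gene, and it and Letm1 had the 2 highest means of this list. It had 106, 206 and 248 normalized reads in BZ-32, BZ-34 and BZ-40 and 58.1 and 24.1 in RM-40 and RM-43, all border zone libraries being higher. Its log2 change was 2.20 ± 0.80 (SE, limma adjusted p = 0.204), and 2.07 within mouse 40. It passed by DESeq2 without BZ-32 (2.51, adjusted p = 0.0478, with 0.0478 to 0.973 across the alternatives). Without BZ-32 DESeq2 called 524 genes in all. Mcu, the pore subunit of the uniporter, was chosen after its values were seen. It had 79.2, 28.3 and 74.3 normalized reads in BZ-32, BZ-34 and BZ-40 and 132 and 244 in RM-40 and RM-43, all border zone libraries being lower. Its log2 change was -1.69 ± 0.82 (SE, limma adjusted p = 0.299). Median log2 changes of all tested genes of the 4 lists were -0.66, 0.09, 0.09 and -0.25 in the order given, against -0.21 for all tested genes.

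**Figure D4:**
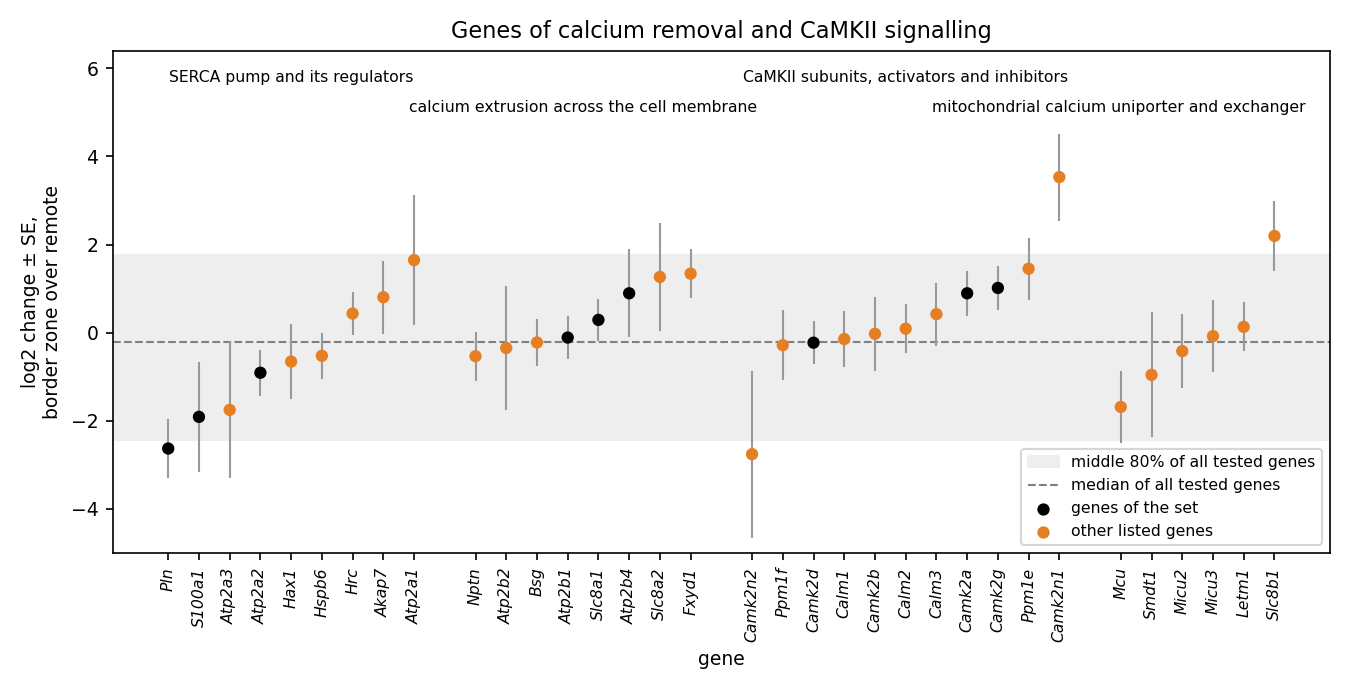
Log2 change ± SE (limma), border zone over remote, of each tested gene in the 4 pathway lists, black for the genes described above and orange for other listed genes; the band holds the middle 80% of all tested genes and the dashed line their median. Pln, Camk2n2, Camk2n1 and Slc8b1 lie outside the band.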

How the data were processed

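Per the file headers, the authors deposited normalized values per gene and library, a never-negative signal of reads divided by a size factor. STAR, DESeq2 and mm10 appear in the submitters' processing notes without versions or roles. Sources used here do not give the counter, annotation or strand use. All values above 0 (100%) were whole multiples of the library's smallest, within 0.01, so reads were recovered. The authors deposited log2 fold changes with p-values and adjusted p-values, quoted as theirs.

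Genes with a mean of at least 10 were tested with limma 3.58.1 (R 4.3.3; trend, two-sided, region as the only term) on log2(value + 1), Benjamini-Hochberg adjusted over all genes. This scale understates changes of low genes. edgeR 4.0.16 and DESeq2 1.42.0 used recovered reads. Ratios had exact permutation tests (SciPy 1.17.1). Alternatives were other tools, scalings, pseudocounts, filters and left-out libraries. Scripts were tested on simulated data.

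The genes and lists were chosen with earlier results of these data known. Named from the pathway lists were genes called, otherwise the 2 with the highest mean; where others are named, the text says so. From the lists 1 gene is not reported here. Replicates are libraries of separate mice within a region. Coordinates are from GENCODE M21 (GRCm38, the assembly of mm10), and gene names come from the file or the reference names.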

Additional observations from a re-analysis of the deposited data

How the results depend on the processing

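limma called 0 genes, and 0 of the 9 tested genes of the set, with the deposited scaling. DESeq2 called 902 genes, limma with total-count scaling 1, and DESeq2 on mice 40 and 43 alone 328. Without 1 library the count ran from 0 to 2801, and from 0 to 2 within the set. Total-count scaling turned Slc8a1 (-1.14), Atp2b4 (-0.52), Camk2a (-0.53), Camk2g (-0.41), Hrc (-0.99), Fxyd1 (-0.089), Calm2 (-1.33) and Letm1 (-1.29) negative. It moved the median of all tested genes by -1.38. Quantile normalization turned Slc8a1 (-1.04), Hrc (-0.21), Calm2 (-0.074) and Letm1 (-0.17). Without 1 library, by limma or DESeq2, changes crossed 0 for Atp2b1 (-0.34 to 0.081), Camk2d (-0.74 to 0.31), S100a1 (-3.16 to 0.20), Bsg (-0.58 to 0.19), Calm2 (-0.050 to 0.26) and Letm1 (-0.094 to 0.41). In mice 40 and 43 alone, by limma and DESeq2 in turn, reversed changes were -0.66 and -0.82 for Atp2b4, 0.58 and 0.36 for S100a1, -0.093 and -0.069 for Hrc and -0.43 and -0.40 for Letm1. Within mouse 40 they were -1.41 for Atp2b4, 0.30 for Camk2d, 1.48 for S100a1, -0.33 for Hrc and -0.21 for Letm1. The cause was not tested. The direction of Pln, Atp2a2, Hspb6, Camk2n1, Slc8b1, Ppm1e and Mcu held in 22 of 22 alternatives, and that of the 3 ratios in each of theirs. For Pln, Camk2n1, Slc8b1, Mcu and the 3 ratios the regions did not overlap. Leaving libraries out at the deposited scaling therefore could not turn their direction, and those alternatives are no test of it. The DESeq2 fits that left out libraries, that on mice 40 and 43 included, were chosen after seeing the data. With 1 library left in a region, that library is assumed to vary like the others.

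No paired analysis was possible because only mouse 40 is in both regions. With 3 libraries against 2 the smallest exact p is 0.2. Depth limits Sln, at 0, and S100a1, with 5 recovered reads in BZ-32.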

Other observations

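Other members of the gene families were mostly low. Atp2b2, a plasma membrane pump gene, had 1162 normalized reads in BZ-32 against 19.7 to 137 in the other 4 libraries. Slc8a2, an exchanger gene best known from brain, had 218 in BZ-34 and 13.9 to 42.8 elsewhere. Atp2a1, the SERCA gene of fast skeletal muscle, had 113 in BZ-40 and 5.28 to 14.8 elsewhere. Each value came from 1 border zone library, and these genes were chosen after their values were seen. Camk2n2, the second CaMKII inhibitor gene, was at 0 in BZ-32 and BZ-34, and had 32.1, 11.3 and 37.3 normalized reads in BZ-40 and in RM-40 and RM-43. Camk2n2 too was chosen after its values were seen.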
